A study of Mus musculus with 6 samples.

Results

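The genes described here are 8 regulators and enzymes of the red cell programme, chosen by name: the transcription factor genes Gata1 and Klf1, the GATA1 cofactor gene Zfpm1, the erythropoietin receptor gene Epor, and Alas2, Alad, Urod and Fech, which encode enzymes of heme synthesis. Of these 8 genes, 7 had a row of the deposited table annotated with their symbol alone, out of 22180 genes tested. The single row that lists Alas2 lists Apex2 as well, so Alas2 has no value of its own. Each of the 7 measured genes had 1 such row.

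The samples were 3 arrays of cells treated for 24 h with 330 nM DB2313, a compound that the labels call an inhibitor of PU.1, and 3 arrays of cells given the same volume of water. Both groups were 1 mouse acute myeloid leukaemia cell line, PU.1low URE-/-, which came from a leukaemic mouse lacking the URE, the distal enhancer that drives Spi1, the gene of PU.1, so the vehicle cells carry that deletion and low PU.1 too. The cells grew in medium with serum and culture supernatants of WEHI and BHK cells, and the labels name no added erythropoietin. The labels call the arrays biological replicates without saying whether the cultures were started separately, so p-values here reflect only how these arrays vary, which may be technical variation. Precision is limited by the number of arrays, and array medians lay between 4.77 and 4.82 on the log2 scale.

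GATA1 is the zinc finger factor that switches on most red cell genes, and it does so with its cofactor FOG1, encoded by Zfpm1. KLF1 is the factor that binds CACC boxes of globin and other red cell genes, and it is itself a GATA1 target. GATA1 and PU.1 bind each other and each hinders the other's target genes, which sets erythroid against myeloid fate in blood progenitors. Heme synthesis starts in the mitochondrion with aminolevulinate synthase, made from Alas2 in red cell precursors and from Alas1 in other cells, passes through the cytosol, and ends in the mitochondrion where ferrochelatase inserts iron. The comparison asks whether genes of the GATA1 programme differ when a PU.1 inhibitor is given.

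The promoter windows are shown to mark GATA and CACC letters, which GATA1 and KLF1 are known to use, but not every window holds both. They are taken from RefSeq on build GRCm38.p6, run 5′ to 3′ on the strand of the gene, and reach from 250 bases before the start site to 50 after it. The capitals mark matches of the GATA motif (AGATAA or AGATAG, or either of these with T as its first letter) and the CACC motif (CCNCNCCC), each searched on both strands. The Gata1 window is chrX:7967861-7968160 on the minus strand, that of Klf1 is chr8:84901732-84902031 on the plus strand, that of Epor is chr9:21963527-21963826 on the minus strand, and that of Alas2 is chrX:150547167-150547466 on the plus strand.
Gata1: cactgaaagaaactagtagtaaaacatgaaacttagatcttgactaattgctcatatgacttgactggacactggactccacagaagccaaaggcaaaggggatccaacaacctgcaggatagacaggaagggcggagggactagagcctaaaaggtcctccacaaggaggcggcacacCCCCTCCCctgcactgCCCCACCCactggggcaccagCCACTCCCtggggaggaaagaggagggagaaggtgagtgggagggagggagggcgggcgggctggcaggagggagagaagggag
Klf1: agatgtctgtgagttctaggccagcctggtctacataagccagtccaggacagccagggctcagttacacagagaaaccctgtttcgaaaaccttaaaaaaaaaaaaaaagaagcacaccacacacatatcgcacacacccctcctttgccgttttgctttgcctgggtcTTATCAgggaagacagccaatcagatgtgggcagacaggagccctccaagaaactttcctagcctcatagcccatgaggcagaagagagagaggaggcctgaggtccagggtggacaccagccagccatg
Epor: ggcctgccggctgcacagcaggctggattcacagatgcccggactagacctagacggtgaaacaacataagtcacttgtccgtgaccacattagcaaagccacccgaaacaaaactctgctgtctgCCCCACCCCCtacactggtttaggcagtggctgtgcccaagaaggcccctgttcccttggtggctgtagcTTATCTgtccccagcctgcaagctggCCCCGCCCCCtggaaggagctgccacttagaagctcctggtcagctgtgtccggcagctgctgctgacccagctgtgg
Alas2: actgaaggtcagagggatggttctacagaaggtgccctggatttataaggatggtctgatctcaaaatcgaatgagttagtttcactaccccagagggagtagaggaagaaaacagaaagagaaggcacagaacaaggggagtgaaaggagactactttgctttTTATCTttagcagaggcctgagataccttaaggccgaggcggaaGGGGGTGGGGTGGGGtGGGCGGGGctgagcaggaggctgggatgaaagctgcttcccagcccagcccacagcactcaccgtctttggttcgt

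The GATA motif stood in the windows of Klf1, Epor and Alas2, once in each, between bases -86 and -49 from the start site, and on the strand opposite to the gene. Across all 32851 promoter windows of this length, 29.8% held it. The CACC motif, which 49.5% of windows held, had 3 matches in the Gata1 window and none in that of Klf1. The Epor and Alas2 windows had 4 CACC matches each, some of which overlap one another. Zfpm1 had 4 CACC matches, Urod 1, and the 2 windows of Alad 2 and 4, with no GATA motif in any of them. A PU.1 motif (GAGGAAG on either strand, in 13.6% of windows), which is not put in capitals, was found in the Alas2 window and in none of the windows of the 6 other genes searched, Gata1, Klf1, Epor, Zfpm1, Urod and Alad. These matches describe letters and were not tested as binding sites.

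In limma, 0 of the 7 measured genes were past an adjusted p of 0.05 in either direction, where 1.81% of all genes tested were, 1.02% as higher and 0.789% as lower. At an unadjusted p under 0.05, 1 of the 7 (Klf1) was lower with DB2313 and 0 were higher, where 12.7% of all genes were under that value, 6.16% as lower and 6.51% as higher. An unmoderated test per gene also called 0 of them. In bulk samples like these, fewer cells of a type and less RNA per cell cannot be told apart. Their log2 differences (DB2313 minus vehicle) ranged from -0.26 for Klf1 to 0.10 for Urod, with 6 of 7 below 0 and a median of -0.09. Over all genes the median was -0.002, and 50.9% were below 0. The 95% intervals bound these differences: the outermost limits of any of the 7 were -0.49 for Klf1 and 0.24 for Urod.

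**Figure D1:**
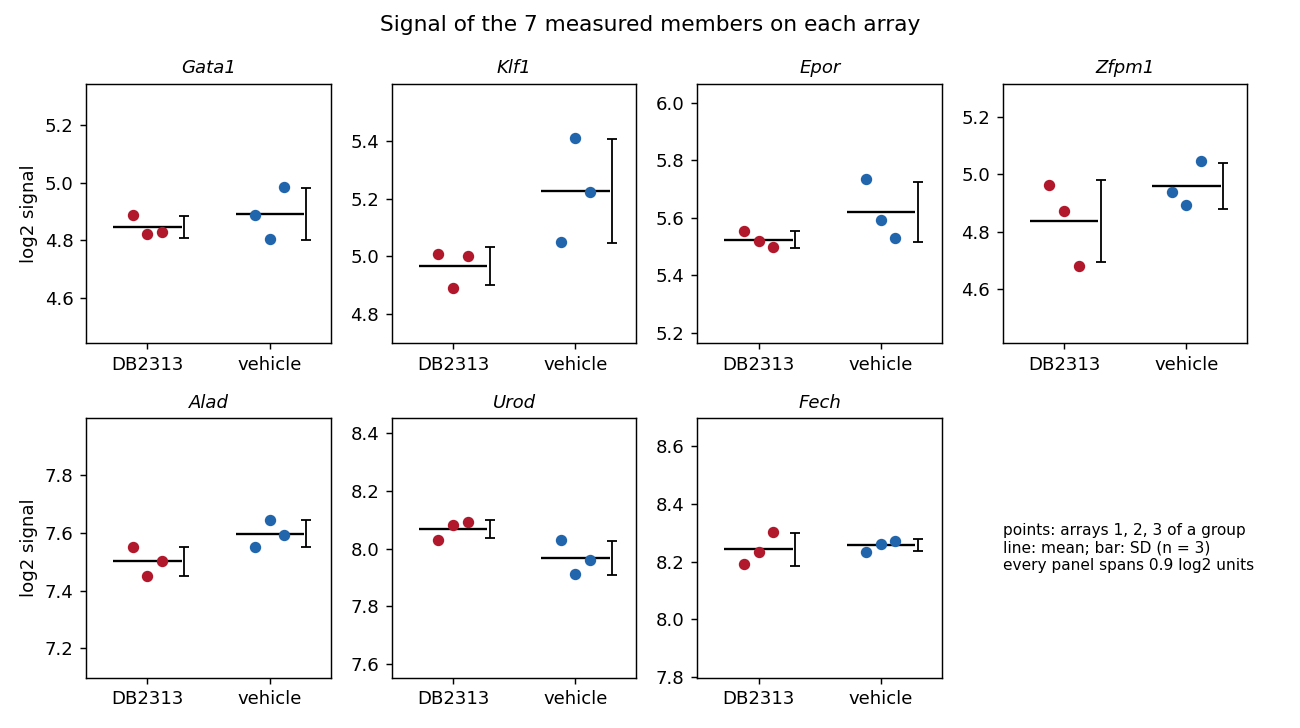
Log2 signal of Gata1, Klf1, Epor, Zfpm1, Alad, Urod and Fech on each array, with DB2313 arrays in red on the left and vehicle arrays in blue on the right, lines at the mean and bars for the SD (n = 3 each). The panels share 1 span but not 1 position on the scale. The groups are apart for Klf1 and Alad, where every DB2313 array is below every vehicle array, and overlap or touch for the other 5.

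Whether the rows carried signal at all was judged from 1390 genes of olfactory and vomeronasal receptors, which as a group are not expected to be transcribed in blood cells. Their mean log2 signal had a median of 2.86 and a 95th percentile of 4.83. Gata1 lay just above that mark, with 95.2% of the receptor genes at or below its mean signal, and Zfpm1 (95.3%) and Klf1 (96.8%) were close by. Epor was above 98.3% of them. Alad, Urod and Fech were above 99.9% of them. The rows of Gata1, Zfpm1 and Klf1 were therefore near the upper end of the range of these receptor genes, though well above their median. A change in a row so dim may be understated on the log2 scale, which was not tested. Rows differ in how brightly their probes bind, so these positions do not rank the genes by abundance.

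**Figure D2:**
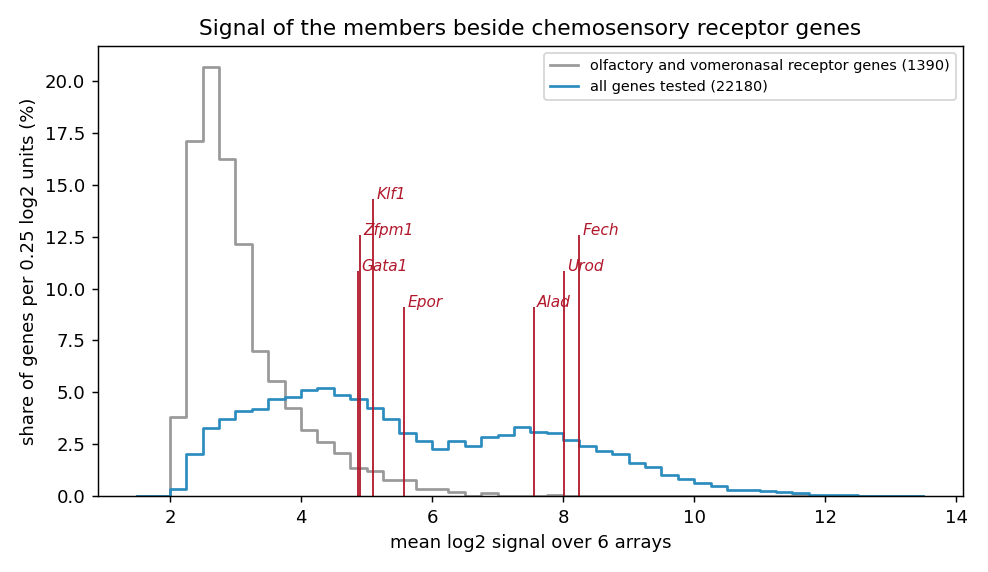
Distribution of the mean log2 signal over the 6 arrays, as the share of genes per bin in percent, for 1390 olfactory and vomeronasal receptor genes (grey) and all 22180 genes tested (blue), with red lines at the 7 measured genes. Gata1, Zfpm1, Klf1 and Epor stand in the upper tail of the grey curve, while Alad, Urod and Fech stand beyond nearly all of it.

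Gata1, the lead factor of the group, had 4.89, 4.82 and 4.83 on the DB2313 arrays, against 4.89, 4.80 and 4.98 on the vehicle arrays (log2 signal). The groups overlapped, and the highest value was that of vehicle replicate 3. The log2 difference was -0.05 (SE 0.07, 95% interval -0.21 to 0.11, limma adjusted p = 0.846), and it was -0.0005 without vehicle replicate 3 and -0.09 without vehicle replicate 2. Zfpm1 had 4.96, 4.87 and 4.68 on DB2313 arrays and 4.94, 4.89 and 5.05 on vehicle arrays. Its groups overlapped too, and DB2313 replicate 3 was its lowest array. The log2 difference was -0.12 (interval -0.32 to 0.08, limma adjusted p = 0.645), and it was -0.04 without DB2313 replicate 3 and -0.18 without DB2313 replicate 1.

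Klf1 showed the largest difference of the 7. It had 5.01, 4.89 and 5.002 on DB2313 arrays, against 5.05, 5.41 and 5.22 on vehicle arrays (log2 signal). All 3 DB2313 arrays were below all 3 vehicle arrays, but vehicle replicate 1 was within 0.04 of the nearest DB2313 array and vehicle replicate 2 stood high. The mean was 4.97 ± 0.07 with DB2313 and 5.23 ± 0.18 with vehicle (SD, n = 3 each), or 1.20-fold lower, a log2 difference of -0.26 (SE 0.10, interval -0.49 to -0.03). The unadjusted p was 0.0290 and the adjusted p 0.318 in limma, so it did not pass. A 2-sided exact permutation test over the arrays gave p = 0.1, the smallest that 3 against 3 allows. The difference was -0.17 without vehicle replicate 2 and -0.35 (adjusted p = 0.189) without vehicle replicate 1, and with 32 added to the linear signal before log2 it was -0.14. Groups did not overlap for 2 of the 7 genes, Klf1 and Alad, both lower with DB2313, beside 19.3% of all genes in either direction, 9.55% as lower and 9.75% as higher.

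By the root mean square distance between values centred on each gene's own mean over the 6 arrays, the genes closest to Klf1 in pattern, out of 11086 genes at or above the median signal, were Pigl, which encodes an enzyme of glycosylphosphatidylinositol anchor synthesis (distance 0.031 log2 units), the unnamed clone 1110032F04Rik (0.032) and Ttc33 (0.050). All 3 had their highest value on vehicle replicate 2, as Klf1 did, which follows from how they were picked. None of them passed the test.

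Epor, the receptor through which erythropoietin keeps red cell precursors alive, had 5.56, 5.52 and 5.50 on DB2313 arrays, against 5.73, 5.59 and 5.53 on vehicle arrays. The groups overlapped only between vehicle replicate 3 and DB2313 replicate 1. The log2 difference was -0.09 (SE 0.07, interval -0.26 to 0.07, limma adjusted p = 0.654), and it was -0.04 without vehicle replicate 1 and -0.14 without vehicle replicate 3.

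The 3 heme enzymes, whose rows were far above the receptor genes, had the narrowest intervals of the 7. Alad, encoding the enzyme that joins aminolevulinate into porphobilinogen, had 7.55, 7.45 and 7.50 on DB2313 arrays, against 7.55, 7.65 and 7.59 on vehicle arrays. The DB2313 arrays were all lower, by a margin of under 0.01 at the closest pair. The log2 difference was -0.10 (SE 0.06, interval -0.24 to 0.05, limma adjusted p = 0.594).

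Urod, whose product trims uroporphyrinogen to coproporphyrinogen, was the single gene of the 7 with a positive difference. It had 8.03, 8.08 and 8.09 on DB2313 arrays, against 8.03, 7.91 and 7.96 on vehicle arrays. The groups met at 1 value, which DB2313 replicate 1 and vehicle replicate 1 shared. The log2 difference was 0.10 (SE 0.06, interval -0.04 to 0.24, limma adjusted p = 0.569). Fech, encoding ferrochelatase, had 8.19, 8.23 and 8.30 on DB2313 arrays, against 8.23, 8.26 and 8.27 on vehicle arrays. Its groups overlapped and its log2 difference was -0.01 (SE 0.06, interval -0.15 to 0.13, limma adjusted p = 0.952).

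Alas1, Uros, Cpox and Ppox, further enzymes of the pathway, were examined whatever their values, and none of these 4 passed. Alas1, the synthase that sets the rate of the pathway outside red cells, had 9.70, 9.98 and 9.91 on DB2313 arrays, against 10.00, 10.26 and 10.13 on vehicle arrays. All DB2313 arrays were lower, and the log2 difference was -0.26 (SE 0.10, interval -0.49 to -0.04), with an unadjusted p of 0.0284 and an adjusted p of 0.316 in limma. Uros, the uroporphyrinogen synthase gene, had a difference of -0.16 (interval -0.37 to 0.06). Cpox and Ppox, whose products oxidise the later intermediates, had 0.18 (interval -0.02 to 0.38) and 0.21 (interval 0.01 to 0.40), with limma adjusted p of 0.449 and 0.366. Along the pathway, the measured genes of the early steps (Alas1, Alad, Uros) had values below 0, Urod, Cpox and Ppox values above 0, and Fech a value near 0, all short of the threshold. The order was noticed after the values were seen and was not tested.

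**Figure D3:**
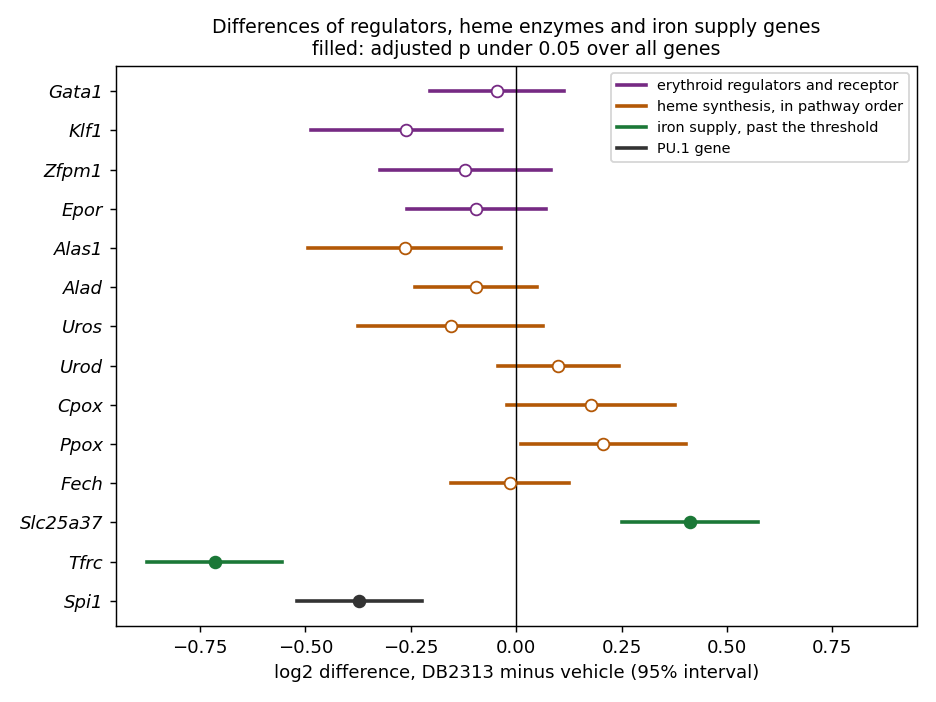
Log2 difference (DB2313 minus vehicle) with its 95% interval for the regulators and receptor, the 7 measured heme synthesis genes in pathway order, 2 iron supply genes and Spi1. Filled points passed an adjusted p of 0.05 over all genes. Slc25a37, Tfrc and Spi1 passed, and none of the regulators or heme synthesis genes did.

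The supply of iron to the pathway differed in 2 genes, in opposite directions. Slc25a37, which encodes mitoferrin, the importer that brings iron into the mitochondria of red cell precursors, had 9.57, 9.68 and 9.67 on DB2313 arrays, against 9.17, 9.32 and 9.19 on vehicle arrays. All DB2313 arrays were higher, and it rose 1.33-fold (log2 difference 0.41, SE 0.07, limma adjusted p = 0.0320). Tfrc, the transferrin receptor gene, had 8.54, 8.62 and 8.67 on DB2313 arrays, against 9.40, 9.32 and 9.25 on vehicle arrays, and fell by 0.72 on the log2 scale (SE 0.07, limma adjusted p = 0.00372). With any single array removed, Slc25a37 no longer passed (0.0528 to 0.133), nor did it under the replicate block (0.0781), while Tfrc lost its call only in the unmoderated test (0.0549). Among the 23 measured genes of mitochondrial iron, cluster assembly and heme transport, these were the 1 that rose and the 1 that fell. Over all genes, 1.02% passed as higher and 0.789% as lower. The median difference of the 23 genes was -0.02. Genes of heme breakdown and heme sensing gave 0 of 9 past the threshold. The closest were the small Maf genes Mafg (-0.22, adjusted p = 0.157) and Mafk (0.19, adjusted p = 0.223), whose products pair with the heme sensor BACH1. Mafg passed in 2 of the 15 alternative settings (adjusted p from 0.0285 to 0.368 over them) and Mafk in 1 (0.0460 to 0.461).

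Of 29 partners and cofactors of GATA1 and KLF1, 2 rose and none fell, with a median difference of -0.008. Over all genes, 1.02% passed as higher and 0.789% as lower. Bcl11a, encoding a repressor of globin genes that is also needed for B cell development, had 8.71, 8.73 and 8.76 on DB2313 arrays, against 8.14, 8.16 and 8.29 on vehicle arrays, so the groups lay well apart. It rose 1.45-fold (log2 difference 0.54, SE 0.07, limma adjusted p = 0.00930). Its other, far dimmer row had 0.03, the mean of both rows had 0.28 (adjusted p = 0.192), and the adjusted p was 0.0531 without DB2313 replicate 3 and 0.0640 in the unmoderated test. Myb, a progenitor factor whose level declines as red cells mature, rose by 0.34 (limma adjusted p = 0.0336). Its dimmer row had 0.27 (limma adjusted p = 0.195 over the rows with 1 symbol), and the mean of both rows had 0.30 (limma adjusted p = 0.0669). Myb also did not pass with any single array removed (0.0939 to 0.143) or under the replicate block (0.113). Chosen after their values were seen, these partners of GATA1 did not pass: Gata2 had -0.16, Tal1 0.05, Lmo2 -0.16, Gfi1b -0.18, Nfe2 -0.008, Ldb1 0.05 and Lyl1 0.09. The rows of Gata2, Tal1 and Gfi1b were dim, with 96.3%, 97.2% and 97.6% of the olfactory and vomeronasal receptor genes at or below them.

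Of 10 measured genes on a list of those that GATA1 is known or thought to repress, Myb rose and Spi1 and Rgs18 fell. Over all genes, 1.02% passed as higher and 0.789% as lower. The list was chosen with earlier results of these data known. Spi1 had 6.52, 6.49 and 6.50 on DB2313 arrays, against 6.79, 6.88 and 6.95 on vehicle arrays, so it fell by 0.37 on the log2 scale (SE 0.06, limma adjusted p = 0.0342), while the Gata1 interval given above reached from -0.21 to 0.11. Spi1 did not pass with any single array removed (0.0648 to 0.134) or under the replicate block (0.113). Rgs18, a regulator of G protein signals, had -0.43, but its row was dim, with 74.5% of the olfactory and vomeronasal receptor genes at or below it. With 32 added to the linear signal its difference was -0.11 (adjusted p = 0.111), and its call was lost in 5 of the 6 settings with 1 array left out. Of 21 measured genes of erythropoietin receptor signalling, 1 fell and none rose, beside the same shares of all genes. It was Socs3, a feedback inhibitor of cytokine receptors, which fell by 0.56 (limma adjusted p = 0.0250, with 0.108 as the mean of its 2 rows, and 0.0579 to 0.109 with 1 array left out).

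**Figure D4:**
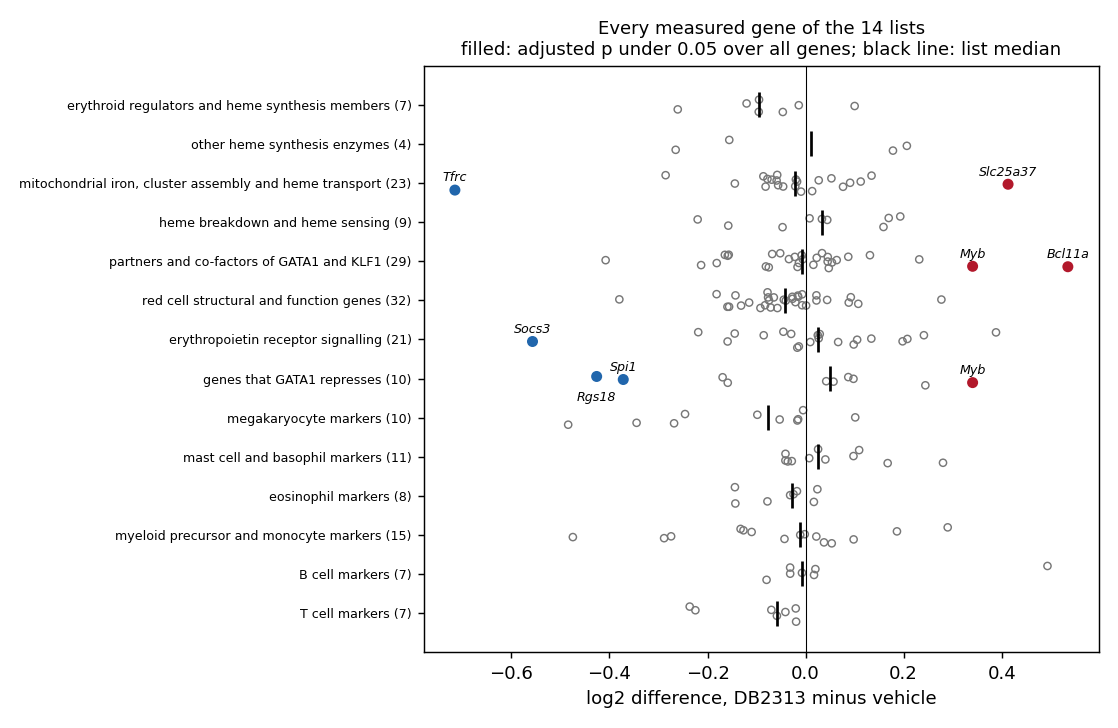
Log2 difference (DB2313 minus vehicle) of every measured gene in 14 gene lists, with the number of measured genes in brackets, black lines at the list medians, and filled points for genes past an adjusted p of 0.05 (red higher, blue lower). Filled points are few and carry their names, and the red cell list has none.

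Red cell genes themselves gave 0 of 32 past the threshold in limma, with a median difference of -0.04 and 24 of 32 below 0. At an unadjusted p under 0.05, 1 was higher and 0 were lower, beside 6.51% of all genes as higher and 6.16% as lower. The smallest p was that of Xk, encoding a red cell membrane protein (0.28, adjusted p = 0.101, and 0.0220 to 0.292 over the alternative settings, with 3 of 15 past the threshold), then that of Add2, a gene of the membrane skeleton (-0.16, adjusted p = 0.556). Of the 32, 18 (56.2%) lay at or below the 95th percentile of the olfactory and vomeronasal receptor genes, where 43.8% of all genes tested did. The other 14 lay above it, with Cat the brightest (vehicle mean 11.02). Chosen after their values were seen, genes from both ends of the list are given by vehicle mean. Slc2a1, Gypc and Prdx2 had 9.32, 7.80 and 7.28. The embryonic globin genes Hba-x, Hbb-y and Hbb-bh1 had 3.47, 3.40 and 3.24, and Rhag and Car1 3.76 and 3.58. The adult globin genes on the list had no row with 1 symbol and have no value here.

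The labelled cell type was checked against its markers, and 14 of 15 genes of myeloid precursors and monocytes were above the 95th percentile of the receptor genes, where 56.2% of all genes tested were, with Elane, the neutrophil elastase gene, the brightest. The exception was Ptprc, with 72.4% of the receptor genes at or below its mean signal. None of the 15 passed the test in limma, 9 of 15 values were below 0, and the median was -0.01. At an unadjusted p under 0.05, 1 was higher and 2 were lower, beside 6.51% of all genes as higher and 6.16% as lower. The groups did not overlap for 1 gene that was higher with DB2313 and 4 that were lower, beside 9.75% of all genes as higher and 9.55% as lower. Cd68, encoding a lysosomal glycoprotein of macrophages, had the smallest p, with 6.88, 6.96 and 7.13 on DB2313 arrays, against 7.46, 7.34 and 7.59 on vehicle arrays. All its DB2313 arrays were lower, and the log2 difference was -0.47 (SE 0.09, interval -0.69 to -0.26, limma adjusted p = 0.0554), which passed in 4 of the 15 alternative settings, with adjusted p from 0.00688 to 0.208 over them. Fcgr3, an Fc receptor gene, had -0.29 (adjusted p = 0.168), also with no overlap. Mpo, on the same list and chosen after its values were seen, went the other way. It had 0.29 (limma adjusted p = 0.281), with all DB2313 arrays higher.

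Other cells that use GATA1 were also looked for. Of 10 measured megakaryocyte markers 5 were above that percentile, of 8 eosinophil markers 1 (Alox15), and of 11 mast cell and basophil markers 2, Kit and the basophil protease gene Mcpt8. None of these 3 lists had a gene past the threshold in limma. At an unadjusted p under 0.05 there were 3 lower megakaryocyte markers and 1 higher mast cell and basophil marker, with 0 eosinophil markers. Over all genes, 6.16% were lower and 6.51% higher at that value. The megakaryocyte markers had 9 of 10 values below 0 and a median of -0.08, led by Gp6 (-0.48, adjusted p = 0.108) and Gp9 (-0.27, adjusted p = 0.114), and their mean log2 signal lay between 4.66 and 4.77 on DB2313 arrays, against 4.81 to 4.89 on vehicle arrays. The rows of Gp6 and Gp9 were dim, with 94.2% and 95.4% of the olfactory and vomeronasal receptor genes at or below them. Gp6 passed in 1 alternative setting, the trended and robust prior (adjusted p = 0.0471, against up to 0.301 in the others). The mast cell and basophil list had 4 of 11 values below 0 and a median of 0.03, and its mean signals were 4.30 to 4.36 with DB2313 and 4.23 to 4.33 with vehicle. Mcpt8 had 7.996, 7.956 and 8.044 on DB2313 arrays, against 7.704, 7.697 and 7.754 on vehicle arrays. All its DB2313 arrays were higher, and the difference of 0.28 (SE 0.06, limma adjusted p = 0.0745) passed in 4 of the 15 alternative settings, with adjusted p from 0.00889 to 0.244 over them, while Tpsb2, a mast cell tryptase gene, had 0.17 (adjusted p = 0.632). The eosinophil list had 6 of 8 values below 0 and a median of -0.03, with mean signals of 4.02 to 4.15 with DB2313 and 4.08 to 4.18 with vehicle, and Epx, the eosinophil peroxidase gene, and Il5ra, an interleukin receptor gene, had -0.14 each (adjusted p = 0.418 and 0.537). The part of such cells in the values of Gata1 and Klf1 was not tested.

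Of 7 B cell and 7 T cell markers, 1 each was above the percentile, Vpreb3 and Cd28, and none passed in limma. At an unadjusted p under 0.05, 1 B cell marker was higher and 1 T cell marker lower. The shares of all genes at that value were 6.51% as higher and 6.16% as lower. The T cell list had 7 of 7 values below 0 and a median of -0.06, with mean signals of 4.29 to 4.37 on DB2313 arrays, against 4.36 to 4.52 on vehicle arrays. Zap70, a T cell receptor kinase gene, had -0.22 (adjusted p = 0.236) and Cd28, a costimulatory receptor gene, -0.24 (adjusted p = 0.507). The B cell list had 4 of 7 values below 0 and a median of -0.007, with mean signals of 4.13 to 4.23 on DB2313 arrays, against 4.08 to 4.18 on vehicle arrays. Vpreb3, a gene of B cell precursors, had 0.49 (adjusted p = 0.178), and Pax5, the B lineage factor gene, had -0.08 (adjusted p = 0.671).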

How the data were processed

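Gene expression was measured on Affymetrix arrays of 6 RNA samples, 3 per group. Per the labels' protocols, total RNA was labelled with biotin by a whole-transcript kit. Affymetrix Expression Console was used per the submitters' processing notes, with no version; how background was corrected and probes were summarised is not stated there. The values deposited are log2 signal, as judged from its range; its near-equal quartiles make normalization before deposit likely, so a shift of all RNA would not be visible. Of 41345 rows, 23521 had 1 gene symbol in the platform annotation, 1814 several and 16010 none, and rows with several or none stayed out. The brightest row per gene was kept, giving 22180 genes; gene identifiers of 23328 rows were found in RefSeq (GRCm38.p6) and 0 symbols needed updating.

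DB2313 was compared with vehicle by limma 3.58.1 in R 4.3.3 (lmFit, eBayes, 2-sided), with Benjamini-Hochberg adjustment over all genes at 0.05. The fit was tested on simulated data. The 8 genes and the 14 lists were chosen with earlier results of these data known. Named genes were the 8 genes, Alas1, Uros, Cpox, Ppox and Spi1, and from each other list up to 4 genes past the threshold with the largest difference or, where none passed, the 2 with the smallest p; the brightest gene of a marker list could be named too. Others are said to be chosen after their values were seen. The alternatives tried were the replicate number as block, the mean of a gene's rows, each array removed in turn, an unmoderated test, a robust trended prior, median centring or quantile normalization of the arrays, 32 added to the linear signal, and leaving out genes under the 0.25 quantile or the median of signal.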

Additional observations from a re-analysis of the deposited data

How the results depend on the processing

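None of the 7 measured genes passed under any of the 15 alternative settings, and of their 101 values under an alternative that kept the sign, all stayed on the same side of the threshold. The exception in sign was Fech, at 0.012 without DB2313 replicate 1 and as low as -0.044 without another array, against -0.01 on all arrays. Adjusted p for Klf1 ranged from 0.189 to 0.545. The filter at the median signal left out Gata1, Klf1 and Zfpm1. Over all genes, 401 passed, against 799 with the filter at the median, 830 with the offset of 32, 920 with the trended and robust prior, 190 with the replicate block, 70 in the unmoderated test, and 136 to 187 with 1 array left out. Of the listed genes 7 passed, against 14, 15, 17, 3, 0 and 1 to 3 under the same settings in that order, and 4 with the mean of rows. Array number and dim rows limit what Gata1, Klf1 and Zfpm1 can show. The labels state no pairing, so the replicate numbers were not taken as pairs. Across all genes, the deviations of same-numbered arrays had r of 0.023, 0.078 and 0.008. Differently numbered arrays had r from -0.071 to 0.047. Some heme synthesis genes followed the numbers more closely. The block lowered the SE of Alas1 from 0.098 to 0.063, of Cpox from 0.085 to 0.064 and of Ppox from 0.084 to 0.065. None of them passed under it (limma adjusted p = 0.191, 0.354 and 0.300). It lowered the SE of Uros too, and raised those of Alad, Urod and Fech. Over all genes the block reduced the calls, and it added none among the 7 genes.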

Other observations

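The row that lists both Alas2 and Apex2, which cannot be given to either gene, had 4.31, 3.96 and 3.72 on DB2313 arrays, against 3.95, 3.95 and 4.22 on vehicle arrays (log2 signal). Its groups overlapped, and its log2 difference was -0.04 (SE 0.15, 95% interval -0.39 to 0.31, limma adjusted p = 0.945 over the 25335 rows with at least 1 symbol). Of the olfactory and vomeronasal receptor genes, 86.8% lay at or below its mean signal.

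Outside the rule for named genes, and chosen after their values were seen, 3 further genes around the red cell programme are described, none of which passed. Other listed genes had smaller adjusted p than Abcb10 and Socs2. Among them were Cdk6 (0.24, limma adjusted p = 0.136), Pik3r1 (0.24, limma adjusted p = 0.136) and Cbl (-0.22, limma adjusted p = 0.166). Klf6, a KLF family factor, had 7.43, 7.68 and 7.59 on DB2313 arrays, against 7.92, 7.91 and 8.10 on vehicle arrays, a log2 difference of -0.41 (limma adjusted p = 0.0797). Abcb10, a transporter of the inner mitochondrial membrane that is needed for heme synthesis, had -0.29 (limma adjusted p = 0.202), with all DB2313 arrays below all vehicle arrays. Socs2, which is induced by STAT5 downstream of cytokine receptors, had 0.39 (limma adjusted p = 0.252), opposite in sign to Socs3.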
